A study of Mus musculus with 6 samples.

Results

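The measurements concern 46 genes of the cell cycle and of proliferation in mouse left ventricle, read on Illumina bead arrays. They were taken as all probes annotated to the 46 symbols, kept where the detection p, which reflects the share of negative control probes at least as bright, was below 0.01 on 2 or more of the 6 arrays. Of the 46 genes 44 had a probe and 32 had a kept one, among 9577 named genes kept on the whole array. The 32 were 17 of 28 mitotic genes, 11 of 12 genes of DNA replication and nucleotide supply, and 4 of 6 others. Only 20 of them were detected on all 6 arrays, and the other 12 passed through the arrays on which they were bright.

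The study asked what the histone H3 lysine 9 demethylase KDM3A does in a heart under pressure overload. Male c57/BL6 mice had their aortic arch narrowed by a band (transverse aortic constriction, TAC) or sham surgery at 6 to 8 weeks of age, and by the labels the left ventricle was taken 3 weeks later, whereas the study's text gives a longer interval. Kdm3a-Tg mice carried a FLAG-tagged Kdm3a cDNA behind the αMHC promoter, which is active in heart muscle cells, and wild-type (WT) mice did not. There were 2 Kdm3a-Tg TAC, 2 WT TAC, 1 Kdm3a-Tg Sham and 1 WT Sham array, each from 1 mouse with its own number, so neither sham group has a replicate. Replicate 1 of either TAC group and both shams carry animal numbers of 3 digits, and replicate 2 of either TAC group carries a number of 2 digits. Which transgenic line the array mice came from is not in the labels.

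A cell that divides copies its DNA in S phase and parts the copies in mitosis. The replication genes include the Mcm2 to Mcm7 helicase, the sliding clamp Pcna and enzymes that make deoxynucleotides, and they are switched on by E2F factors as the cell leaves G1. Mitotic genes encode kinases, motors, kinetochore and midbody proteins, and they peak later, in G2 and M, under the DREAM and MuvB-FOXM1 complexes, which bind the element called CHR. In the adult heart few muscle cells divide, while fibroblasts, endothelial cells and immune cells can. In RNA of whole tissue, fewer cycling cells and less of a transcript per cycling cell cannot be told apart.

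Kdm3a itself was read by 4 probes. Only ILMN_3118169 showed a step, with intensities of 34643 and 33540 in the Kdm3a-Tg TAC arrays and 229 in WT TAC replicate 2 and 341 in WT Sham. Its intensity was 30614 for replicate 1 labelled WT TAC and 247 for the array labelled Kdm3a-Tg Sham, so these libraries went against their genotype label on this probe. Their labels are kept below. Most class medians of the members that rest on replicate 1 labelled WT TAC, and most list medians by animal number, are also given without it. The calls by animal number rest on that library too and are given only with it. Detected probes numbered between 15643 and 16492 per array. Of 9 cardiomyocyte markers 8 were measured, all of them detected on all 6 arrays, while Tnnt2 had no kept probe.

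The promoters of the members are shown first because the mitotic and the replication genes are told apart there by short motifs. RefSeq windows (GRCm38.p6, 250 bases before to 50 after each start) were found for 16 of the 17 mitotic and 10 of the 11 replication genes, and not for Aurkb, Mcm4, Ccnd1, Ccnd2 and Stmn1. Searched on both strands were the CHR as TTTGAA, the CCAAT box as CCAAT, and the E2F element as TTTCCCGC, TTTCGCGC, TTTGCCGC or TTTGGCGC. The CHR was in 13 of 16 mitotic windows (81.2%) and in 1 of 10 replication windows (10%), that of Mcm2, while 20.2% of all 27025 genes with a window held it. The E2F element was in 1 mitotic window (6.25%), that of Cdk1, and in 5 replication windows (50%), those of Mcm3, Mcm5, Mcm6, Mcm7 and Uhrf1, against 2.6% of all genes. The CCAAT box was held by 81.2% of the mitotic, 80% of the replication and 41.1% of all genes. The same 13 mitotic genes held the CHR and the box, a pair found in 7.97% of all genes. Birc5, Nusap1 and Pttg1 held none of these motifs. Of the remaining members only Hmgb2 had a window, which held the CHR and the CCAAT box. A match describes letters in a window and is not evidence of binding.

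Printed below are the 160 bases directly before the start, 5′ to 3′ on the gene's own strand, with CHR and E2F matches on either strand in capitals; overlapping E2F matches run together. The 5 mitotic genes with the CHR shown here come first: Cdk1 at chr10:69352913-69353072 (minus strand), Prc1 at chr7:80294316-80294475 (plus strand, before the later of its 2 listed starts), Cdc20 at chr4:118437344-118437503 (minus strand), Kif11 at chr19:37376222-37376381 (plus strand) and Kif22 at chr7:127042421-127042580 (minus strand). Mcm5 at chr8:75109349-75109508 (plus strand) and Mcm6 at chr1:128359706-128359865 (minus strand) are the replication genes, and Pttg1 at chr11:43425982-43426141 (minus strand) is a mitotic gene with no match. The CHR of these mitotic genes begins 15 bases before the start in Cdk1, 30 in Prc1, 18 in Cdc20, 19 in Kif11 and 17 in Kif22. Cdk1 has another at 71, and Kif22 has another at 215, outside the printed bases. The E2F matches of Mcm6 begin at 110, 106 and 47 bases before the start, those of Mcm5 at 153 and 149.
Cdk1: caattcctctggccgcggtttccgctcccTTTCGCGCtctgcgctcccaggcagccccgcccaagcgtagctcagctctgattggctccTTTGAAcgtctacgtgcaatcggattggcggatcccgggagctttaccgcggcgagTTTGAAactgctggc
Prc1: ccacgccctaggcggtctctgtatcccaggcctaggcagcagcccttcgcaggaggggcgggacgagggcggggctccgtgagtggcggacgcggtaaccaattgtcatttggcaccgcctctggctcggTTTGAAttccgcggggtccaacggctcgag
Cdc20: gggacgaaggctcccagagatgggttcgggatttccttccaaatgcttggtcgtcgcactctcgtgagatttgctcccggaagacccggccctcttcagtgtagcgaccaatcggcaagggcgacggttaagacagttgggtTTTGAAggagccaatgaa
Kif11: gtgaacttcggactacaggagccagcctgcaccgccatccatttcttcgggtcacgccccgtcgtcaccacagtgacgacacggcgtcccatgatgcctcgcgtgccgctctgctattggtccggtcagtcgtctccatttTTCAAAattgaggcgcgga
Kif22: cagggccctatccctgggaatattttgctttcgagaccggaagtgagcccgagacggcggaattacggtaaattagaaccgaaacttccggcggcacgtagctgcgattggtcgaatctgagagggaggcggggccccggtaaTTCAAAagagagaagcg
Mcm5: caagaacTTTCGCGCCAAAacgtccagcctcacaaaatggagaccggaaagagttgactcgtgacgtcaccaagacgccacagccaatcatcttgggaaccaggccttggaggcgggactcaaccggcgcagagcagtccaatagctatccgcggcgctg
Mcm6: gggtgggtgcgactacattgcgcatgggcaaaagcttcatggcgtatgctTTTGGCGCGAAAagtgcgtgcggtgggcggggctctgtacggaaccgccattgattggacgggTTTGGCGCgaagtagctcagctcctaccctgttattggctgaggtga
Pttg1: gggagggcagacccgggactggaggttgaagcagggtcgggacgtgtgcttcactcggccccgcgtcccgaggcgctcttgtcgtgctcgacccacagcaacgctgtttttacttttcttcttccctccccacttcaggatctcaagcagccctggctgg

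**Figure D1:**
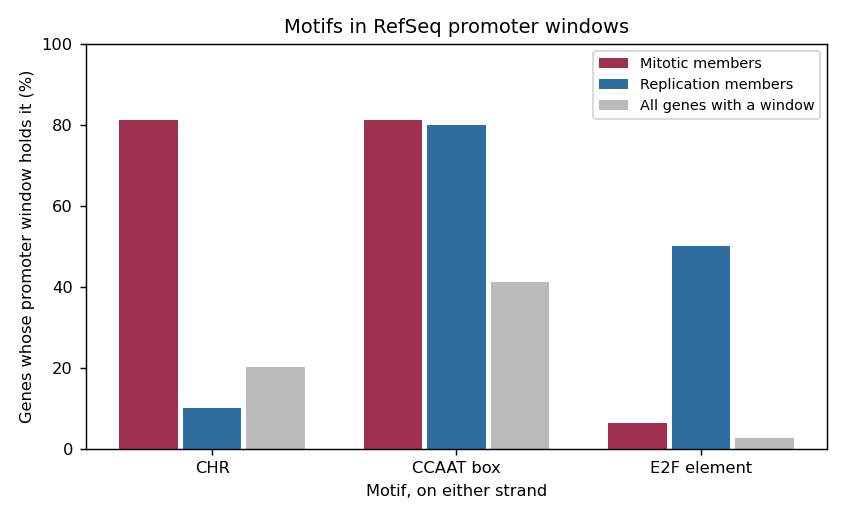
Share of genes (y axis, percent) whose RefSeq promoter window holds the CHR, the CCAAT box or the E2F element on either strand, for mitotic members, replication members and all genes with a window. The CHR stands in 81.2% of mitotic and 10% of replication genes, the E2F element in 6.25% and 50%, against 20.2% and 2.6% of all genes.

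Values below are background-corrected, quantile-normalized log2 intensities, with replicate 1 before replicate 2. A level near 4.3 is background on this scale, and the lowest detected level lay between 5.27 and 5.44, depending on the array. Differences of dim genes are therefore understated, while the filter kept some of these genes through the arrays on which they were bright. Levels of different genes are not compared because each has its own probe. The plot of all members by array shows 3 arrays on which nearly all mitotic genes were bright: replicate 1 of Kdm3a-Tg TAC, that of WT TAC by its label, and WT Sham. They were dim on the other 3: replicate 2 of either TAC group and the array labelled Kdm3a-Tg Sham. The bright arrays hold both genotypes and both surgeries.

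**Figure D2:**
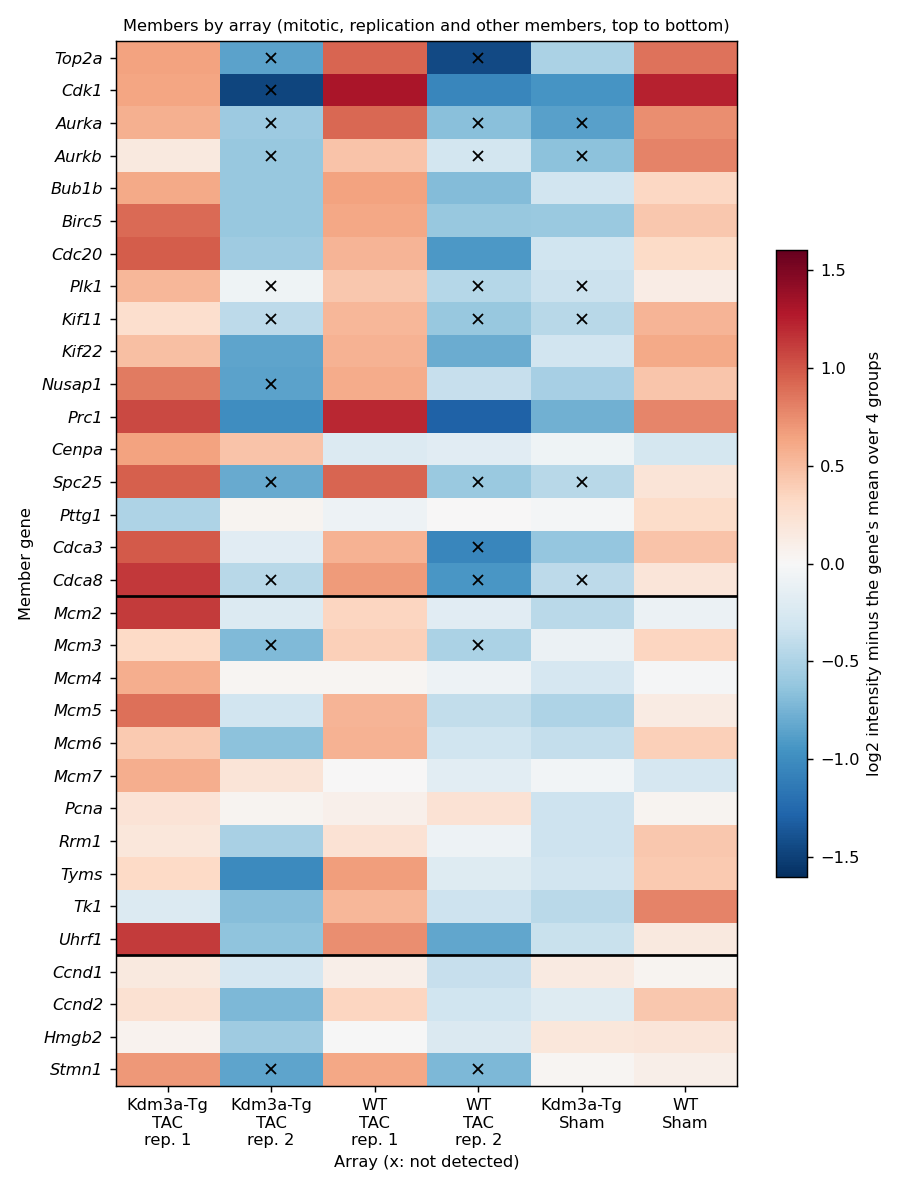
Each row is a member and each column an array. Colour gives the log2 intensity minus the gene's mean over the 4 groups, and a cross marks an array where the gene was not detected. The mitotic rows are red on 3 arrays and blue on 3, apart from Cenpa and Pttg1.

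The mitotic kinases showed this split in full. Cdk1, the kinase that drives entry into mitosis, had 7.15 and 5.05 in Kdm3a-Tg TAC, 7.82 and 5.48 in the libraries labelled WT TAC, 5.57 in that labelled Kdm3a-Tg Sham and 7.74 in WT Sham. It was not detected in Kdm3a-Tg TAC replicate 2. Aurka, a kinase of centrosomes and spindle poles, had 6.18 and 5.04 on the Kdm3a-Tg TAC arrays, 6.54 and 4.95 on those labelled WT TAC, 4.76 on the one labelled Kdm3a-Tg Sham and 6.36 in WT Sham. Aurkb, the kinase of the chromosomal passenger complex, had 5.56 and 4.80 in Kdm3a-Tg TAC, 5.86 and 5.11 in the libraries labelled WT TAC, 4.75 in that labelled Kdm3a-Tg Sham and 6.20 in WT Sham. Plk1, a kinase of mitotic entry and spindle assembly, had 5.94 and 5.34 on the Kdm3a-Tg TAC arrays, 5.84 and 4.95 on those labelled WT TAC, 5.06 on the one labelled Kdm3a-Tg Sham and 5.53 in WT Sham. Aurka, Aurkb and Plk1 were detected only on the 3 bright arrays. Bub1b, which encodes the checkpoint protein BUBR1, had 7.07 and 5.85 in Kdm3a-Tg TAC, 7.10 and 5.76 in the libraries labelled WT TAC, 6.15 in that labelled Kdm3a-Tg Sham and 6.79 in WT Sham, and was detected throughout. In each of these 5 genes the lower of the 2 TAC arrays of a genotype was replicate 2, so the TAC groups overlapped.

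Subunits that work with Aurkb showed the same split. Birc5, or survivin, had 7.31 and 5.81 on the Kdm3a-Tg TAC arrays, 7.03 and 5.80 on those labelled WT TAC, 5.82 on the one labelled Kdm3a-Tg Sham and 6.84 in WT Sham. Cdca8, or borealin, had 6.94 and 5.36 in Kdm3a-Tg TAC, 6.48 and 4.87 in the libraries labelled WT TAC, 5.39 in that labelled Kdm3a-Tg Sham and 6.00 in WT Sham, and was detected on the 3 bright arrays only. Both belong to the passenger complex, and in both Kdm3a-Tg TAC replicate 1 was the brightest array. Cdc20, an activator of the anaphase-promoting complex, had 7.66 and 6.12 on the Kdm3a-Tg TAC arrays, 7.24 and 5.77 on those labelled WT TAC, 6.37 on the one labelled Kdm3a-Tg Sham and 6.998 in WT Sham. Cdca3, which takes part in the degradation of a mitosis inhibitor, had 7.39 and 6.23 in Kdm3a-Tg TAC, 6.97 and 5.36 in the libraries labelled WT TAC, 5.79 in that labelled Kdm3a-Tg Sham and 6.86 in WT Sham, and was missed only in WT TAC replicate 2. Pttg1, or securin, which holds back the cohesin protease until anaphase, departed from this pattern, with 5.50 and 6.03 on the Kdm3a-Tg TAC arrays, 5.91 and 6.00 on those labelled WT TAC, 5.96 on the one labelled Kdm3a-Tg Sham and 6.29 in WT Sham. Its lowest array was Kdm3a-Tg TAC replicate 1, where 8 of the 17 mitotic genes were highest.

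Among genes of the spindle, chromosomes and midbody, Prc1, a bundler of midzone microtubules, had the largest difference between the WT TAC replicates (2.50), with 8.99 and 6.95 in Kdm3a-Tg TAC, 9.15 and 6.65 in the libraries labelled WT TAC, 7.17 in that labelled Kdm3a-Tg Sham and 8.72 in WT Sham. Top2a, the topoisomerase that untangles sister chromosomes, had 6.78 and 5.29 on the Kdm3a-Tg TAC arrays, 7.07 and 4.69 on those labelled WT TAC, 5.63 on the one labelled Kdm3a-Tg Sham and 7.01 in WT Sham, and was not detected in either replicate 2 of TAC. Nusap1, a spindle-associated protein, had 6.89 and 5.20 in Kdm3a-Tg TAC, 6.66 and 5.69 in the libraries labelled WT TAC, 5.53 in that labelled Kdm3a-Tg Sham and 6.50 in WT Sham. Prc1 and Nusap1 fell into the same 3 bright and 3 dim arrays as Cdk1, as did Top2a. The motor Kif11, which pushes spindle poles apart, had 5.50 and 4.82 on the Kdm3a-Tg TAC arrays, 5.77 and 4.63 on those labelled WT TAC, 4.79 on the one labelled Kdm3a-Tg Sham and 5.78 in WT Sham. The chromosome-bound motor Kif22 had 6.78 and 5.46 in Kdm3a-Tg TAC, 6.86 and 5.52 in the libraries labelled WT TAC, 5.99 in that labelled Kdm3a-Tg Sham and 6.91 in WT Sham. Spc25, a subunit of the NDC80 kinetochore complex, had 6.10 and 4.34 on the Kdm3a-Tg TAC arrays, 6.08 and 4.55 on those labelled WT TAC, 4.70 on the one labelled Kdm3a-Tg Sham and 5.36 in WT Sham. Kif11 and Spc25 were detected on the 3 bright arrays only, Kif22 on all 6.

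Cenpa, the histone H3 variant of centromeres, was the other exception. It had 12.64 and 12.45 in Kdm3a-Tg TAC, 11.77 and 11.82 in the libraries labelled WT TAC, 11.93 in that labelled Kdm3a-Tg Sham and 11.70 in WT Sham, so both Kdm3a-Tg TAC arrays lay above all 4 others and it was detected throughout. A second kept probe of Cenpa, detected on 4 arrays, read 6.08 and 6.11 on the Kdm3a-Tg TAC arrays, 5.73 and 5.21 on those labelled WT TAC, 5.37 on the one labelled Kdm3a-Tg Sham and 5.73 in WT Sham, with the same arrays on top. On the brighter Cenpa probe the 2 TAC replicates of a genotype lay within 0.19 of each other. In every other mitotic gene but Pttg1 replicate 1 was higher by 0.60 or more on the brightest kept probe. The dimmer Cenpa probe went with Cenpa's brighter one in Kdm3a-Tg TAC, but in WT TAC its replicate 1 by the label was higher (5.73 against 5.21).

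Replication genes split less, as the plot of class values by array shows. The helicase subunits differed among themselves. Mcm2 had 7.85 and 6.53 in Kdm3a-Tg TAC, 7.08 and 6.55 in the libraries labelled WT TAC, 6.31 in that labelled Kdm3a-Tg Sham and 6.65 in WT Sham, and Mcm5 had 8.18 and 7.004 on the Kdm3a-Tg TAC arrays, 7.85 and 6.91 on those labelled WT TAC, 6.81 on the one labelled Kdm3a-Tg Sham and 7.43 in WT Sham. In both the brightest array was Kdm3a-Tg TAC replicate 1. Mcm6 had 7.92 and 6.85 in Kdm3a-Tg TAC, 8.06 and 7.19 in the libraries labelled WT TAC, 7.13 in that labelled Kdm3a-Tg Sham and 7.89 in WT Sham. Mcm3 had 6.03 and 5.00 on the Kdm3a-Tg TAC arrays, 6.09 and 5.21 on those labelled WT TAC, 5.62 on the one labelled Kdm3a-Tg Sham and 6.05 in WT Sham, and was not detected in either replicate 2 of TAC. Mcm4 had 9.57 and 9.03 in Kdm3a-Tg TAC, 9.03 and 8.91 in the libraries labelled WT TAC, 8.73 in that labelled Kdm3a-Tg Sham and 8.98 in WT Sham, and Mcm7 had 6.99 and 6.63 on the Kdm3a-Tg TAC arrays, 6.43 and 6.25 on those labelled WT TAC, 6.38 on the one labelled Kdm3a-Tg Sham and 6.15 in WT Sham. In Mcm4 and Mcm7 both Kdm3a-Tg TAC arrays were above both WT TAC arrays, by a margin below the printed decimals in Mcm4.

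Enzymes of deoxynucleotide supply had their brightest array elsewhere on their brightest kept probe. Rrm1, the large subunit of ribonucleotide reductase, had 8.03 and 7.34 in Kdm3a-Tg TAC, 8.08 and 7.77 in the libraries labelled WT TAC, 7.51 in that labelled Kdm3a-Tg Sham and 8.28 in WT Sham. Tk1, the thymidine kinase of S phase, had 6.17 and 5.72 on the Kdm3a-Tg TAC arrays, 6.92 and 6.06 on those labelled WT TAC, 5.96 on the one labelled Kdm3a-Tg Sham and 7.19 in WT Sham. Tyms, or thymidylate synthase, had 7.32 and 5.99 in Kdm3a-Tg TAC, 7.66 and 6.79 in the libraries labelled WT TAC, 6.69 in that labelled Kdm3a-Tg Sham and 7.42 in WT Sham. WT Sham was the brightest array for Rrm1 and Tk1, the library labelled WT TAC replicate 1 for Tyms. The second kept probes of Rrm1 and Tyms, given below, were instead brightest in Kdm3a-Tg TAC replicate 1. Uhrf1, which recruits the maintenance DNA methyltransferase to new DNA, had 7.73 and 5.96 on the Kdm3a-Tg TAC arrays, 7.34 and 5.77 on those labelled WT TAC, 6.25 on the one labelled Kdm3a-Tg Sham and 6.76 in WT Sham, the widest range of the class. Pcna, the sliding clamp, had 6.05 and 5.87 in Kdm3a-Tg TAC, 5.92 and 6.07 in the libraries labelled WT TAC, 5.51 in that labelled Kdm3a-Tg Sham and 5.88 in WT Sham, the narrowest range, with the library labelled Kdm3a-Tg Sham lowest.

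The remaining members differed from each other. The G1 cyclin genes Ccnd1 and Ccnd2, partners of CDK4 and CDK6, had 11.40 and 10.98 on the Kdm3a-Tg TAC arrays, 11.35 and 10.88 on those labelled WT TAC, 11.40 on the one labelled Kdm3a-Tg Sham and 11.30 in WT Sham in the case of Ccnd1, and 10.83 and 9.86 in Kdm3a-Tg TAC, 10.92 and 10.25 in the libraries labelled WT TAC, 10.37 in that labelled Kdm3a-Tg Sham and 11.01 in WT Sham in that of Ccnd2. Their lowest arrays were the 2 TAC arrays of replicate 2. Hmgb2, a chromatin protein of dividing cells, had 7.05 and 6.43 on the Kdm3a-Tg TAC arrays, 6.998 and 6.76 on those labelled WT TAC, 7.18 on the one labelled Kdm3a-Tg Sham and 7.20 in WT Sham, and was the 1 member of which all 4 TAC arrays lay below both shams. Stmn1, a microtubule destabilizer, had 6.66 and 5.13 in Kdm3a-Tg TAC, 6.59 and 5.25 in the libraries labelled WT TAC, 6.00 in that labelled Kdm3a-Tg Sham and 6.07 in WT Sham, and was not detected in either replicate 2 of TAC.

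There were 11 members with more than 1 kept probe. Birc5, Cdc20, Bub1b, Spc25, Top2a and Tyms read higher on the 3 bright arrays than on the rest on every kept probe. Cenpa, Mcm6, Rrm1, Ccnd1 and Ccnd2 did not. The further probes of Birc5 were detected on 3 arrays and those of Spc25, Top2a and Tyms on 2, so the filter favoured the split on them. The other kept probes of Birc5 read 6.42 and 4.86 on the Kdm3a-Tg TAC arrays, 6.05 and 4.95 on those labelled WT TAC, 5.05 on the one labelled Kdm3a-Tg Sham and 6.08 in WT Sham, and 6.82 and 4.99 in Kdm3a-Tg TAC, 6.57 and 4.94 in the libraries labelled WT TAC, 5.36 in that labelled Kdm3a-Tg Sham and 6.65 in WT Sham. Those of Cdc20 read 6.83 and 4.88 on the Kdm3a-Tg TAC arrays, 6.62 and 5.49 on those labelled WT TAC, 5.39 on the one labelled Kdm3a-Tg Sham and 6.28 in WT Sham, and 6.55 and 5.62 in Kdm3a-Tg TAC, 6.32 and 5.39 in the libraries labelled WT TAC, 5.25 in that labelled Kdm3a-Tg Sham and 6.19 in WT Sham. In both genes every probe was brighter on the same 3 arrays. The second probe of Bub1b read 5.75 and 5.43 on the Kdm3a-Tg TAC arrays, 5.74 and 4.94 on those labelled WT TAC, 4.83 on the one labelled Kdm3a-Tg Sham and 5.52 in WT Sham, that of Spc25 6.23 and 4.47 in Kdm3a-Tg TAC, 5.60 and 4.55 in the libraries labelled WT TAC, 4.42 in that labelled Kdm3a-Tg Sham and 5.07 in WT Sham, and that of Top2a 4.86 and 4.44 on the Kdm3a-Tg TAC arrays, 5.45 and 4.52 on those labelled WT TAC, 4.39 on the one labelled Kdm3a-Tg Sham and 5.49 in WT Sham. Top2a on its dimmer probe was brightest in WT Sham and dim in Kdm3a-Tg TAC replicate 1, where it was not detected.

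Among replication and cyclin genes, the other probes of Mcm6 read 7.47 and 6.19 in Kdm3a-Tg TAC, 7.13 and 6.32 in the libraries labelled WT TAC, 6.48 in that labelled Kdm3a-Tg Sham and 6.71 in WT Sham, and 7.93 and 6.94 on the Kdm3a-Tg TAC arrays, 7.68 and 6.97 on those labelled WT TAC, 7.25 on the one labelled Kdm3a-Tg Sham and 6.98 in WT Sham. The second probe of Tyms read 5.46 and 4.80 in Kdm3a-Tg TAC, 5.25 and 4.71 in the libraries labelled WT TAC, 4.70 in that labelled Kdm3a-Tg Sham and 5.39 in WT Sham. These kept the order of TAC replicates seen above, but on 1 Mcm6 probe WT Sham lay near the dim arrays. The second probe of Rrm1 read 7.61 and 7.46 on the Kdm3a-Tg TAC arrays, 7.44 and 7.21 on those labelled WT TAC, 7.17 on the one labelled Kdm3a-Tg Sham and 7.45 in WT Sham, with Kdm3a-Tg TAC replicate 2 level with WT Sham. The other probes of Ccnd1 read 8.33 and 7.95 in Kdm3a-Tg TAC, 8.80 and 8.27 in the libraries labelled WT TAC, 8.23 in that labelled Kdm3a-Tg Sham and 9.05 in WT Sham, and 10.996 and 10.57 on the Kdm3a-Tg TAC arrays, 10.99 and 10.65 on those labelled WT TAC, 10.91 on the one labelled Kdm3a-Tg Sham and 10.89 in WT Sham, with both replicate 2 arrays of TAC below their replicate 1. Of the other Ccnd2 probes 1 read 9.99 and 9.08 in Kdm3a-Tg TAC, 10.31 and 9.61 in the libraries labelled WT TAC, 9.83 in that labelled Kdm3a-Tg Sham and 10.40 in WT Sham, in the order of the first. The other read 6.50 and 6.27 on the Kdm3a-Tg TAC arrays, 6.20 and 6.44 on those labelled WT TAC, 6.68 on the one labelled Kdm3a-Tg Sham and 6.28 in WT Sham, and disagreed, with WT TAC replicate 2 above the library labelled WT TAC replicate 1.

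Of the 14 members without a kept probe, Mki67 and Ccnb1 had no annotated probe among those used here. Ccnb2, Ccna2, Bub1, Kif20a, Tpx2, Ube2c, Cks2, Racgap1, Ect2 and Cks1b were detected on no array. Just outside the threshold, with detection on 1 array, stood Rrm2, the small subunit of ribonucleotide reductase, and Ccne1, the cyclin of S phase entry. The brightest Rrm2 probe read 6.10 and 4.44 in Kdm3a-Tg TAC, 4.82 and 4.68 in the libraries labelled WT TAC, 4.48 in that labelled Kdm3a-Tg Sham and 4.69 in WT Sham, and Ccne1 read 5.29 and 5.33 on the Kdm3a-Tg TAC arrays, 5.26 and 4.78 on those labelled WT TAC, 5.00 on the one labelled Kdm3a-Tg Sham and 5.39 in WT Sham. Just inside it, the representative probes with the fewest detections were detected on 3 arrays, those of Aurka, Aurkb, Cdca8, Kif11, Plk1 and Spc25. All of these are mitotic genes.

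Taken class by class, the mitotic genes had a median of 0.64 in Kdm3a-Tg TAC replicate 1 and -0.60 in replicate 2, on the log2 scale relative to each gene's mean over the groups. The arrays labelled WT TAC had 0.59 (replicate 1) and -0.67 (replicate 2). The library labelled Kdm3a-Tg Sham had -0.45 and WT Sham 0.44. Over all genes these array medians lay between -0.03 and 0.02. The replication genes had 0.42 and -0.51 in Kdm3a-Tg TAC, 0.38 and -0.21 in the arrays labelled WT TAC, -0.34 in the library labelled Kdm3a-Tg Sham and 0.16 in WT Sham. The 7 mitotic genes detected on all 6 arrays kept the split, with medians of 0.65 and -0.60 in Kdm3a-Tg TAC, 0.55 and -0.70 in the arrays labelled WT TAC, -0.31 in that labelled Kdm3a-Tg Sham and 0.34 in WT Sham. On the array level 16 of 17 mitotic genes were above their own mean in Kdm3a-Tg TAC replicate 1, 2 in replicate 2, 15 and 1 in the arrays labelled WT TAC, 0 in the library labelled Kdm3a-Tg Sham and 16 in WT Sham.

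**Figure D3:**
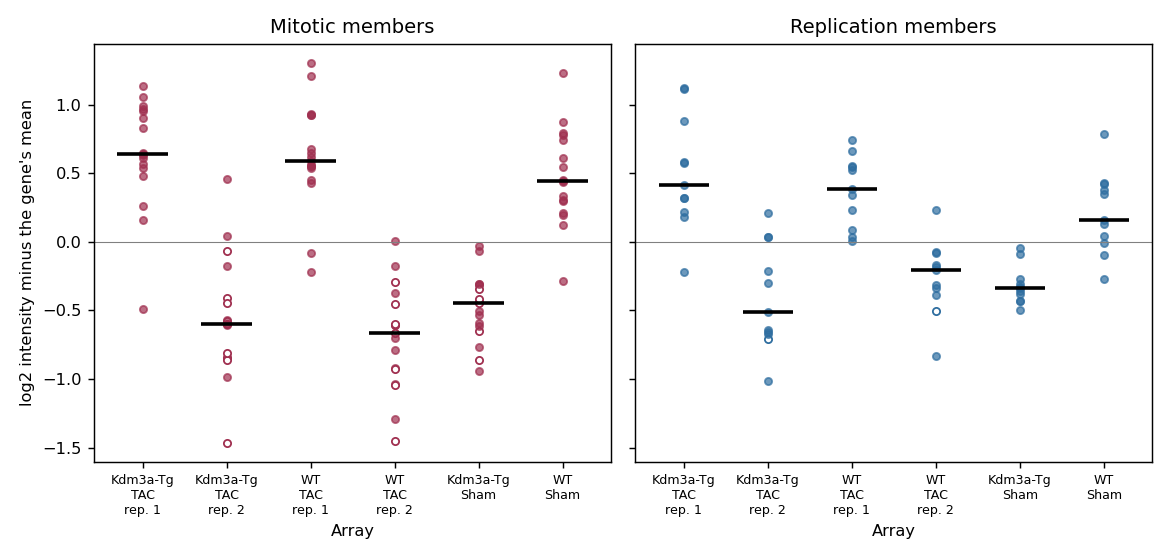
Log2 intensity minus each gene's mean over the 4 groups (y axis) on each array (x axis) for mitotic and replication members. Points are genes, open where not detected, and bars are class medians. Mitotic medians reach 0.64 and -0.67, replication medians 0.42 and -0.51.

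The question of the first comparison, Kdm3a-Tg TAC against WT TAC, was what the transgene adds under pressure overload. No member passed limma at an adjusted p below 0.05, nor did any of the 9577 genes (0% called), while 698 genes and 1 member had an unadjusted p under 0.05. That member was Cenpa, higher by 0.75 ± 0.15 SE in Kdm3a-Tg TAC (adjusted p = 0.67). The methods' t-test also gave only Cenpa at that unadjusted threshold and 0 members after Benjamini-Hochberg. The mitotic genes had a median difference of 0.03, between -0.55 (Cdk1) and 0.75, the replication genes one of -0.03, between -0.57 (Tyms) and 0.47 (Mcm7), and all genes one of 0.01. Both Kdm3a-Tg TAC arrays lay above both WT TAC arrays in Cenpa, Mcm4 and Mcm7, 3 of 32 members, against 20.7% of all genes, and below them in 0, against 18.8%.

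These differences were small beside the spread between replicates. The SE was 1.00 for Prc1, whose difference was 0.07, 0.98 for Cdk1 and 0.88 for Top2a, so differences of that size were not detectable with 2 arrays a group. Between the replicate 1 arrays alone, Kdm3a-Tg TAC differed from the library labelled WT TAC replicate 1 by a median of -0.04 in mitotic and 0.13 in replication genes. Between the replicate 2 arrays the medians were 0.09 and -0.20. Leaving out 1 TAC array moved the mitotic median to between -0.61 (without WT TAC replicate 2) and 0.72 (without Kdm3a-Tg TAC replicate 2), and it was -0.59 without Kdm3a-Tg TAC replicate 1 and 0.69 without the library labelled WT TAC replicate 1. The replication median was -0.59 without Kdm3a-Tg TAC replicate 1, -0.40 without WT TAC replicate 2, 0.38 without Kdm3a-Tg TAC replicate 2 and 0.31 without the library labelled WT TAC replicate 1. Cenpa kept its sign in each of these, with 0.65 to 0.84, and its adjusted p lay between 0.071 and 0.97 over the alternatives.

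**Figure D4:**
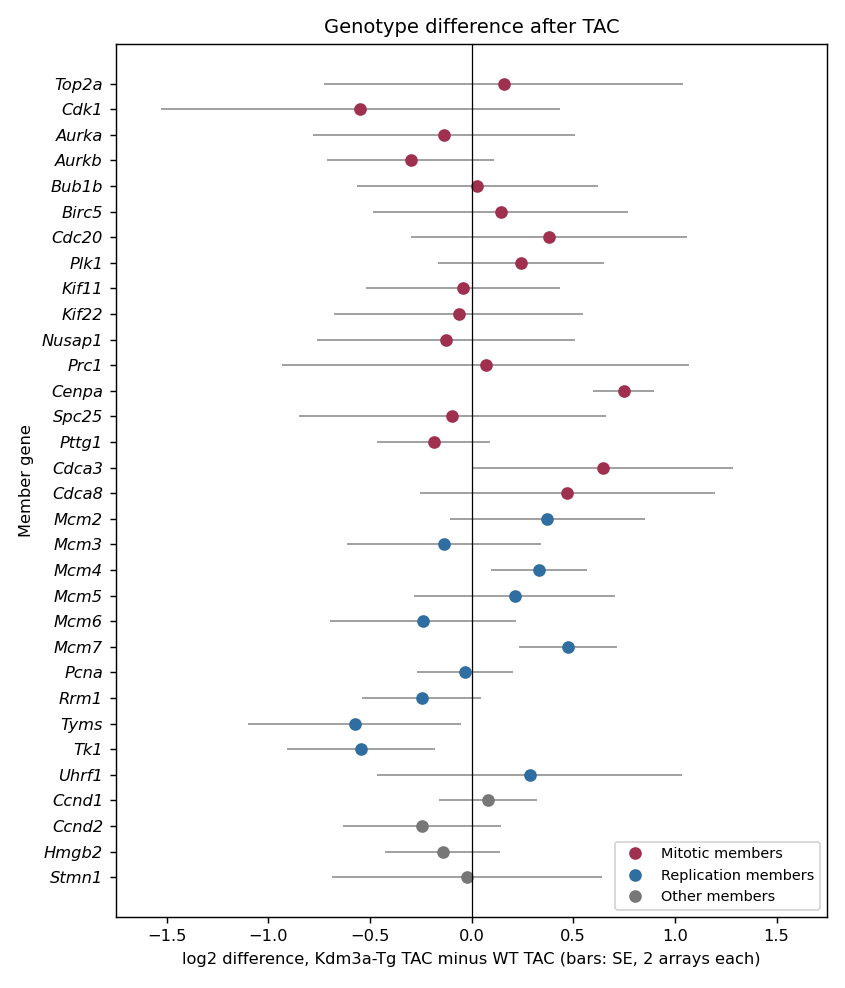
Log2 difference of Kdm3a-Tg TAC minus WT TAC for each member (x axis), with SE bars from limma over 2 arrays a group. Cenpa, at 0.75 ± 0.15, is the member farthest from 0 in units of its SE, and bars of most mitotic genes span 0.

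TAC was compared with sham within each genotype, to see how pressure overload moves these genes. In Kdm3a-Tg hearts 0 members and 0% of genes were called, with 1 member (Cenpa, 0.62 ± 0.18 SE, adjusted p = 1.00) and 279 genes at an unadjusted p under 0.05. The mitotic median was 0.52 and the replication median 0.44 (all genes 0.01), with 16 of 17 and 8 of 11 higher after TAC. Both TAC arrays lay above the library labelled Kdm3a-Tg Sham in 11 of 32 members, against 33% of all genes, and below it in 1 (Hmgb2), against 30.2%. In 4 of the 11 (Aurka, Aurkb, Plk1 and Kif11) neither that sham nor Kdm3a-Tg TAC replicate 2 was above background, so their order was not measured. Without Kdm3a-Tg TAC replicate 1 the medians were -0.03 and -0.18, and without replicate 2 they were 1.28 and 0.63.

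In WT hearts 0 members and 0% of genes were called as well, with 0 members and 166 genes at an unadjusted p under 0.05. The mitotic median was -0.49 and the replication median -0.19 (all genes 0.04), and 16 of 17 and 8 of 11 were lower after TAC. Both arrays labelled WT TAC lay above WT Sham in 3 members (Mcm7, Pcna and Cenpa), against 35.3% of all genes, and below it in 8, among them Rrm1, Tk1, Aurkb, Kif11 and Kif22, against 23.8%. Without WT TAC replicate 2 the mitotic median was 0.15 and the replication median 0.17, and without the library labelled WT TAC replicate 1 they were -1.12 and -0.52.

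The library labelled Kdm3a-Tg Sham was set against WT Sham, 1 array each. No member or gene was called (0%), with 0 members and 309 genes at an unadjusted p under 0.05. Mitotic genes had a median difference of -0.98, with 16 of 17 lower, and replication genes one of -0.52, with 10 of 11 lower, where all genes had 0.04. WT Sham detected all 17 mitotic genes and the library labelled Kdm3a-Tg Sham 11, so the filter in part favoured this direction. Over members detected on all 6 arrays the medians were closer, at -0.64 for mitotic (6 of 7 lower) and -0.57 for replication genes (9 of 10 lower). Some were not detected in the library labelled Kdm3a-Tg Sham and have only a bound: Aurka was at least 1.89-fold lower there (adjusted p = 1.00), Aurkb at least 1.69-fold, Cdca8 at least 1.47-fold, Kif11 at least 1.27-fold and Plk1 at least 1.06-fold. The spread of this comparison is taken from the TAC replicates.

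The interaction asks whether the TAC effect differs between genotypes. It was called for 0 members and 0% of genes, with 0 members and 87 genes at an unadjusted p under 0.05, although it was positive in 17 of 17 mitotic genes (median 1.00) and in 11 of 11 replication genes (median 0.52), against 47.3% of all genes (median -0.02). In some dim mitotic genes it rests on readings not above background, and the 7 mitotic genes detected on all 6 arrays had a median of 0.86. Every gene's interaction rests on the same 2 single sham arrays. The mitotic median lay between 0.37 (without WT TAC replicate 2) and 1.70 (without Kdm3a-Tg TAC replicate 2), 0.42 without Kdm3a-Tg TAC replicate 1 and 1.53 without the library labelled WT TAC replicate 1. The replication median lay between 0.07 (without Kdm3a-Tg TAC replicate 1) and 0.86 (without Kdm3a-Tg TAC replicate 2).

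Over both genotypes, TAC against sham called 0 members and 0% of genes, with 0 members and 559 genes at an unadjusted p under 0.05. Cenpa differed by 0.35 ± 0.15 SE and Hmgb2 by -0.38 ± 0.22 SE (adjusted p = 0.82 for both). The mitotic median was 0.01, the replication median 0.20 and that of all genes 0.03. All 4 TAC arrays lay above both shams in 0 of 32 members, against 6.62% of all genes, and below them in 1 (Hmgb2), against 3.99%. Without both libraries whose Kdm3a probe went against the label the mitotic median was -1.12 and the replication median -0.52, which sets WT TAC replicate 2 against WT Sham alone. Leaving out 1 TAC array turned them too, to -0.32 and -0.24 without Kdm3a-Tg TAC replicate 1 and to -0.22 and -0.08 without the library labelled WT TAC replicate 1.

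The TAC arrays were last compared by animal number, 3 digits (replicate 1) against 2 digits (replicate 2) with genotype in the model, since the labels give this difference and the genotypes do not follow it. Limma called 18 of 32 members, all higher in the animals with 3 digits, where 7.08% of all genes were called in either direction and 4.11% higher. On simulated data this fit made more false calls than its nominal share, so its adjusted p may be too small. Of the 20 members detected on all 6 arrays 10 were called, against 3.89% higher among all genes so detected. The 18 were 12 mitotic genes, 4 replication genes (Mcm5, Mcm6, Tyms and Uhrf1) and Ccnd2 and Stmn1. Prc1 was higher by 2.27 ± 0.18 SE (adjusted p = 0.0037), Uhrf1 by 1.67 ± 0.20 SE (adjusted p = 0.010), and Cdk1, detected on 1 of the 2 arrays with 2 digits, by 2.22 ± 0.21 SE (adjusted p = 0.0055). Of the 18, 5 were detected on neither array with 2 digits and have only a bound. Top2a was at least 2.83-fold higher, Cdca8 at least 2.43-fold, Stmn1 at least 2.30-fold, Aurka at least 1.92-fold and Spc25 at least 1.59-fold. Limma gave Top2a an adjusted p of 0.016 and the other 4 one between 0.015 and 0.026. These p-values rest on readings not above background in the arrays with 2 digits. The filter kept these 5 through the arrays on which they were bright, so it favoured their calls. The model leaves 1 residual degree of freedom, and what the numbers stand for is not given.

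Values in that comparison also separated without the model. Both arrays with 3 digits lay above both with 2 digits in 27 of 32 members, against 20.6% of all genes, and below them in 1 (Pttg1), against 23.9%. The filter favoured this in the 12 members not detected on all 6 arrays. Of the 20 detected on all 6, both lay above in 15 (5 of 7 mitotic, 7 of 10 replication and 3 of 3 others), against 19.6% of all genes so detected. The mitotic median was 1.36, the replication median 0.93 and that of all genes -0.03, and over members detected on all 6 arrays the medians were 1.33 and 0.79. In Kdm3a-Tg alone, without the library labelled WT TAC replicate 1, replicate 1 differed from replicate 2 by a median of 1.32 in mitotic and 1.03 in replication genes. Mcm4 (0.33 ± 0.16 SE), Mcm7 (0.27 ± 0.20 SE), Pcna (0.01 ± 0.23 SE), Cenpa (0.07 ± 0.11 SE) and Pttg1 (-0.31 ± 0.24 SE) did not pass. Both shams have numbers of 3 digits, but the library labelled Kdm3a-Tg Sham lay with the dim arrays.

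**Figure D5:**
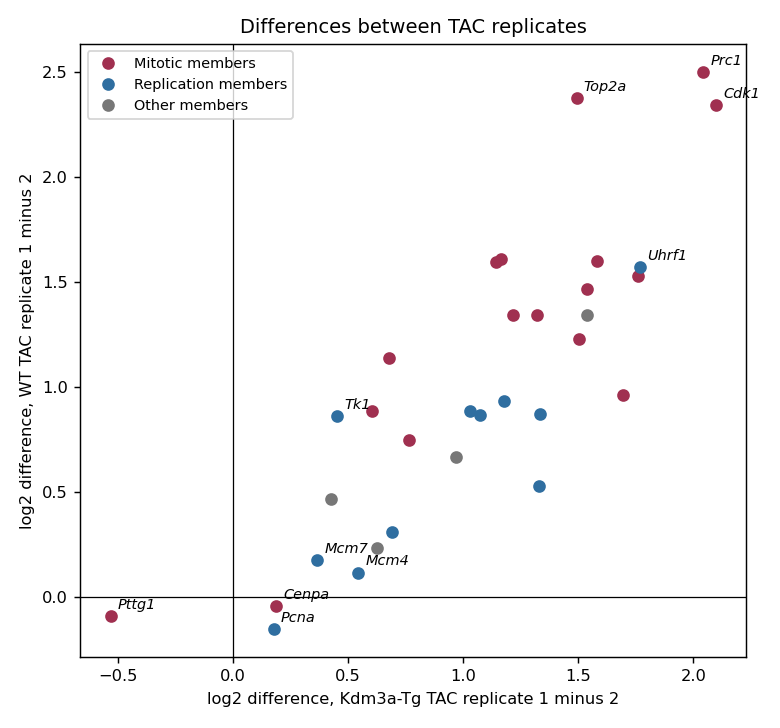
Log2 difference between TAC replicate 1 and replicate 2 in Kdm3a-Tg (x axis) and in WT (y axis), by the labels, for each member. Prc1 and Cdk1 lie above 2 on both axes, and Cenpa, Pcna and Pttg1 lie near 0 in WT.

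Genes of the same pathways outside the 46 were taken from fixed lists. For reference, 46.8% of all genes were higher by animal number (median -0.03), with 4.11% called higher and 7.08% called in either direction. Of 44 other DNA replication genes (origin, polymerase, clamp loader and chromatin assembly) 33 were measured, and by animal number 18 were higher with a median of 0.06, 2 of them called. Of 42 other mitotic genes 19 were measured, 17 were higher with a median of 0.91, and 7 were called. Kdm3a-Tg TAC replicate 1 detected 15 of these 19 and the library labelled WT TAC replicate 1 detected 18. Each replicate 2 of TAC detected 10, so the filter in part favoured this direction. Of 31 G1 regulators, Rb and E2F genes and inhibitors 23 were measured, 14 were higher with a median of 0.11, and 2 were called in each direction. In Kdm3a-Tg alone, the difference by animal number had medians of 0.16, 0.71 and 0.15 over these lists in the same sequence. Between Kdm3a-Tg TAC and WT TAC they had medians of 0.16, -0.05 and -0.10 and 0 calls. In TAC against sham over both genotypes they had medians of 0.15, 0.04 and 0.04 and 0 calls, with adjusted p between 0.82 and 0.91 for the genes named here. The replication genes with the smallest p were Rfc4 (0.53 ± 0.19 SE), Pold1 (0.48 ± 0.18 SE), Rpa3 (-0.41 ± 0.16 SE) and Rpa1 (0.36 ± 0.15 SE), a clamp loader subunit, the catalytic subunit of polymerase delta and members of the single-strand binding complex. The mitotic ones were Cdca5 (0.44 ± 0.27 SE), Tubb5 (0.23 ± 0.24 SE), Kif4 (0.44 ± 0.54 SE) and Mybl2 (-0.28 ± 0.39 SE). The G1 ones were Rb1 (0.49 ± 0.16 SE), the retinoblastoma gene, Cdk4 (-0.26 ± 0.14 SE), E2f4 (-0.29 ± 0.19 SE) and Gadd45a (-0.52 ± 0.35 SE). Kif4, a chromosome-bound motor, had 6.48 and 4.96 in Kdm3a-Tg TAC, 6.18 and 4.72 in the libraries labelled WT TAC, 5.02 in that labelled Kdm3a-Tg Sham and 5.28 in WT Sham. Only its readings in replicate 1 of either TAC group lay above the lowest detected level of the array. The filter kept it through these arrays, so its bright and dim TAC arrays, the same as those of the members, were set by the filter.

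On the TAC arrays most macrophage, fibroblast, endothelial, smooth muscle and pericyte markers moved with the members. Most cardiomyocyte and erythroid markers went the other way. Among all genes 46.8% were higher by animal number, 4.11% were called higher and 7.08% were called in either direction. By animal number 15 of 16 measured macrophage markers (of 19 listed) were higher, with a median of 0.49 and 5 called, as were 9 of 9 fibroblast markers (of 10), with a median of 0.42 and 4 called, while 0 of 8 cardiomyocyte markers were higher (median -0.20, 1 called lower). Of the endothelial markers 9 of 11 were higher (median 0.27, 1 called), of the smooth muscle and pericyte markers 6 of 7 (median 0.43, 0 called), and of the erythroid markers 1 of 6 (median -0.27, 0 called). In Kdm3a-Tg alone the medians were 0.46 for macrophage, 0.81 for fibroblast, -0.28 for cardiomyocyte, 0.32 for endothelial, 0.27 for smooth muscle and pericyte and -0.34 for erythroid markers. The summed macrophage intensity was 21951 and 16684 in Kdm3a-Tg TAC, 22498 and 15932 in the arrays labelled WT TAC, 14561 in the library labelled Kdm3a-Tg Sham and 17206 in WT Sham. The fibroblast sums were 22146 and 17777 in Kdm3a-Tg TAC, 24724 and 18275 in the arrays labelled WT TAC, 18553 in the library labelled Kdm3a-Tg Sham and 23483 in WT Sham. Dcn, at a log2 of 14.21 in WT Sham, made up most of each fibroblast sum. Of the 9 fibroblast markers 4 lay above their own mean in WT Sham. In Kdm3a-Tg TAC replicate 1 these were 6, and in the library labelled WT TAC replicate 1 they were 8. In WT Sham, where the mitotic median was 0.44, that of the macrophage markers was -0.10 and that of the fibroblast markers -0.03. On that array the medians were 0.06 for endothelial, 0.16 for smooth muscle and pericyte and 1.02 for the 3 measured neutrophil markers. They were -0.05 for cardiomyocyte and 0.07 for erythroid markers. Of 11 lymphocyte markers only Cd79b was measured, and the T cell markers Cd3e, Cd3d and Cd3g had no kept probe, nor had Postn, Cd68, Fcgr1, Itgam and the neutrophil markers Ly6g, Cxcr2 and Retnlg. The neutrophil genes S100a8, S100a9 and Csf3r summed to 152 and 266 in Kdm3a-Tg TAC, 824 and 229 in the arrays labelled WT TAC, 114 in the library labelled Kdm3a-Tg Sham and 578 in WT Sham. The part of these cells in the members' values was not tested.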

How the data were processed

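RNA of 6 left ventricles was read on Illumina mouse bead arrays. The deposited table of probe intensities, made by the authors with GenomeStudio 2011.1 (from the submitters' processing notes), is neither background-corrected nor normalized, and gives a detection p-value per probe beside it, as deposited. A second deposited table holds the intensities after quantile normalization by the authors and served only as an alternative. Background was estimated from the detection p-values and removed by normexp with an offset of 16, followed by quantile normalization and log2 (R 4.3.3, limma 3.58.1). Of 45281 probes 34885 had 1 gene symbol, 18 several and 10378 none. Probes detected at p below 0.01 on 2 or more arrays were kept (17014), and the brightest kept probe stood for its gene (9577 genes). The methods give no design for the arrays, so group means were fitted with limma (2 residual degrees of freedom), an additive model for TAC against sham over both genotypes (3), and animal number with genotype within TAC (1). P-values are two-sided, with Benjamini-Hochberg adjustment over all genes at 0.05. On simulated data the fit by animal number made more false calls than its nominal share. The methods' t-test, other scalings, offsets, filters and probe rules, a replicate block and left-out arrays were alternatives. Every member with a kept probe is named, as are the members without one and up to 4 genes of each other list. The number of arrays limits the precision. The members and lists were chosen with earlier results of these data known. Promoters came from RefSeq (GRCm38.p6).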

Additional observations from a re-analysis of the deposited data

Results flagged for a closer look

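In 2 members the TAC arrays were read on opposite sides of sham in the 2 genotypes. Aurkb had 5.56 and 4.80 on the Kdm3a-Tg TAC arrays against 4.75 on the array labelled Kdm3a-Tg Sham, and 5.86 and 5.11 on the arrays labelled WT TAC against 6.20 in WT Sham, with a fitted interaction of 1.148 on the log2 scale (1.15 ± 0.71 SE, limma adjusted p = 1.00). Kif11 had 5.50 and 4.82 on the Kdm3a-Tg TAC arrays against 4.79 on the array labelled Kdm3a-Tg Sham, and 5.77 and 4.63 on the arrays labelled WT TAC against 5.78 in WT Sham, with a fitted interaction of 0.944 (0.94 ± 0.83 SE, limma adjusted p = 1.00). In both genes Kdm3a-Tg TAC replicate 2, WT TAC replicate 2 and the array labelled Kdm3a-Tg Sham were not above background. The order of Kdm3a-Tg TAC replicate 2 and its sham was therefore not measured, and the interactions are fitted values and not measured sizes. Each sham group is 1 array. The same arrangement was seen in 461 of 9577 genes (4.81%), and the opposite one in 7.64% of genes and 0 members.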

How the results depend on the processing

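Of the alternative values 249 kept their direction and call or moved by less than the replicate spread, and 8 did not. That spread was 0.88 for mitotic and 0.55 for replication medians and is itself set by the split between TAC replicates. A median could therefore turn its sign and still be counted as kept. This held for the mitotic median of Kdm3a-Tg TAC against WT TAC at -0.61, without WT TAC replicate 2. By animal number, 10 members were called with only probes detected on all 6 arrays, 28 probes with every kept probe tested on its own, against 18 members, and the replication median was 0.35 with the authors' normalized values, against 0.93. Called genes numbered between 373 (mean of the kept probes) and 948 (median scaling), against 678, and 1256 probes were called when every kept probe was tested. Without single TAC arrays the replication median lay between -0.59 and 0.38 in Kdm3a-Tg TAC against WT TAC and between -0.18 and 0.63 in Kdm3a-Tg TAC against the library labelled Kdm3a-Tg Sham. Without both libraries whose Kdm3a probe went against the label, TAC against sham had medians of -0.52 (replication) and -1.12 (mitotic). Between the genotypes, TAC arrays of the same replicate share only the count of digits in their animal numbers. Deviations of TAC replicate 1 from the group means correlated across genes in the 2 genotypes (r = 0.54 over 9577 genes, which are not independent). With animal number as a replicate block, 1 member was called, Prc1 in Kdm3a-Tg TAC against the library labelled Kdm3a-Tg Sham (adjusted p = 0.036), and called genes numbered 69 there, 7 in Kdm3a-Tg TAC against WT TAC and 93 in TAC against sham over both genotypes, against 0 without it. The block also moved the mitotic median there to 1.26, against 0.52, and turned the WT TAC against WT Sham medians to 0.13 (mitotic) and 0.23 (replication), against -0.49 and -0.19. The cause of these shifts was not tested. Signal over background limits the dim mitotic genes most: 10 of the 17 were not detected on every array, so their differences are understated. The filter also kept these 10 through the arrays on which they were bright.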
